A study of Homo sapiens with 4 samples.

Results

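The genes described here are 36 transcriptional targets and regulators of NF-kB, most of them inflammatory cytokines, chemokines and feedback inhibitors. They were chosen by name, as a list, and measured in A549 and H1299, which are human non-small cell lung cancer lines. Of the 36 genes, 34 had a probe set annotated to that gene alone, out of 19775 such genes in all, and 30 passed the signal filter, out of 12830. The probe set with the highest mean over the 4 arrays stood for each gene. CSF2 and BIRC3 had no single-gene probe set in the annotation used and are not analysed here.

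NF-kB is a family of dimeric transcription factors that IkB proteins hold inactive in the cytoplasm. Receptors for TNF, interleukin-1 and microbial products activate the IKK kinase, which marks IkB for destruction and frees NF-kB to enter the nucleus. Its targets include chemokines that recruit neutrophils and monocytes, and also the genes of its own inhibitors, which close the response. Lung cancer cells can run this programme without immune cells, and the secreted products are known to draw leukocytes into tumours.

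The study asked which genes depend on hMOF, the histone H4 acetyltransferase encoded by KAT8, and compared 4 groups. A549 cells received scramble control siRNA or hMOF siRNA, and H1299 cells received the same pair, each by lipid transfection. Every group was measured on a single array without replicates. Ratios inside a line are therefore given without error or test. Each siRNA test combines a gene's own spread between the lines with a variance estimated over all genes tested. The fit had 1 residual and 3.74 prior degrees of freedom, so the shared variance weighs more in each SE. For TNFRSF9 the SE was 0.107, although the SD of its log2 ratios in the lines was 0.030. An SE near 0.107 therefore does not measure that gene's own spread. Groups follow the source names of the arrays, because the treatment tag of the A549 scramble array and of the H1299 hMOF siRNA array names the other siRNA. The labels do not give the siRNA sequence, the time after transfection or whether cultures were repeated.

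The median signal lay between 73.3 and 75.4 on the 4 arrays. The siRNA target KAT8 fell from 402 to 106 in A549 and from 241 to 61.8 in H1299, to 26.4% and 25.6% of scramble (limma adjusted p = 0.0288). All 6 epithelial markers were called higher in A549, with summed signals of 28772 and 26546 against 3740 and 2821 in H1299 (scramble and hMOF siRNA). Of 5 mesenchymal markers, VIM and ZEB1 were called higher in H1299 and the other 3 in A549. All 4 genes that mark the KEAP1-mutant state of A549 were called higher in A549. PTPRC, the marker shared by leukocytes, stood at no more than 41.5 on any array, and the highest of the 6 leukocyte markers with a probe set, ITGAM, reached 174.

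**Figure D1:**
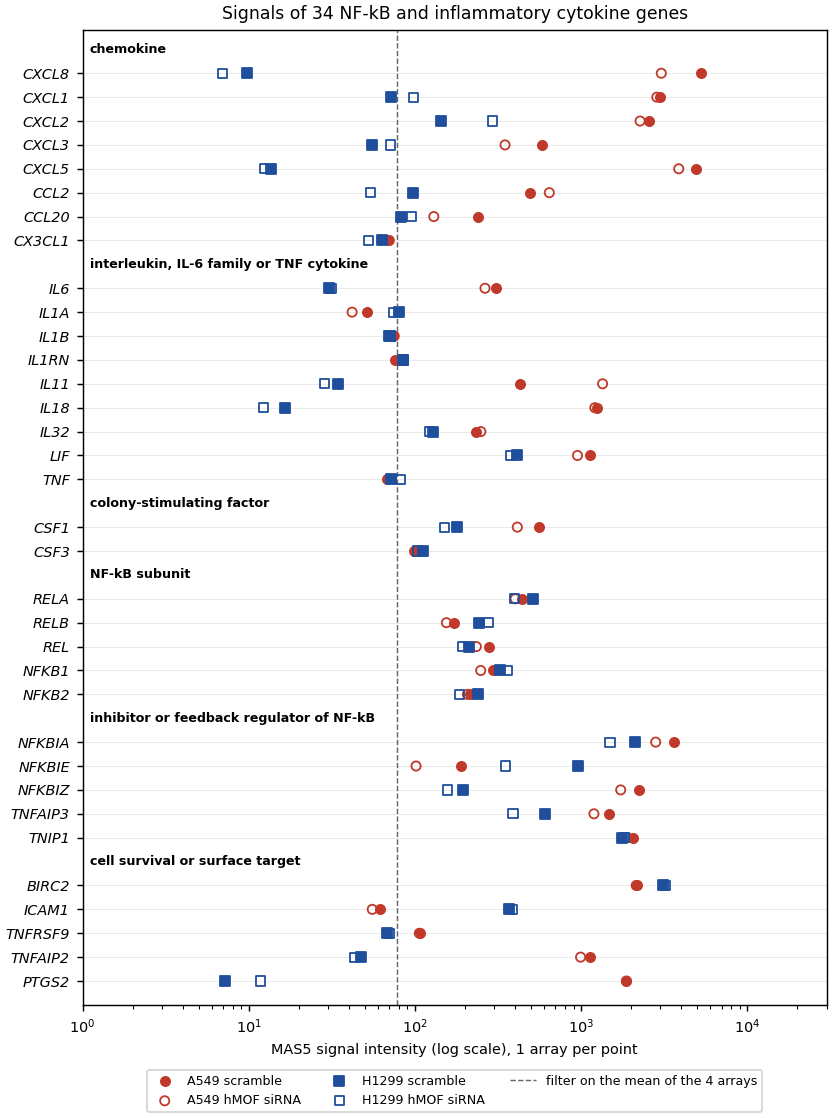
MAS5 signal intensity on a log axis for the 34 genes with a single-gene probe set, with 1 point for each of the 4 arrays and the genes in 6 functional groups. Red circles are A549, blue squares are H1299, filled symbols are scramble and open symbols hMOF siRNA, and the dashed line is the filter of 78.1 on the mean of the 4 arrays. For most chemokines the red symbols lie far to the right of the blue ones, while the NF-kB subunits lie close together in both lines.

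Many of these genes differed strongly between the lines, most often with the higher signal in A549. Between lines, 19 of the 30 genes tested were called higher in A549 and 4 higher in H1299, by limma over all 4 arrays with the siRNA as a block and a Benjamini-Hochberg adjusted p held to 0.05. Over all genes tested, 27.3% were called higher in A549 and 25.1% higher in H1299. Under scramble siRNA alone, a comparison of 1 array with 1 array, 12 of the 30 were at least 4-fold higher in A549 and 2 at least 4-fold higher in H1299, against 4.66% and 2.46% of all genes. The median difference of the 30 genes, H1299 minus A549 on the log2(signal + 29.06) scale, was −1.09, beside −0.03 for all genes. The lines differed in many genes, and all p-values here rest on the spread of these 4 arrays, which may be technical. CXCL8, CXCL3, CXCL5, IL6, IL11, IL18, PTGS2, TNFAIP2 and TNFRSF9 passed the filter through their A549 signals alone, and ICAM1 through its H1299 signals alone. For these genes the filter itself favoured a line difference, which limits the counts above and their p-values below. The shares over all genes were taken past the same filter.

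All 7 chemokine genes past the filter were called higher in A549. CXCL8, the neutrophil attractant interleukin-8, had signals of 5250 and 3037 in A549 and, in H1299, 9.72 and 6.95, in the order scramble and hMOF siRNA used for every gene below. CXCL5, a ligand of the same receptor CXCR2, had 4923 and 3868 against 13.7 and 12.4. CXCL1, the GRO-alpha chemokine, had 2963 and 2855 against 72.2 and 98.2. Both A549 arrays lay far above both H1299 arrays for each of these genes, whatever the siRNA. CXCL2 had 2572 and 2264 against 144 and 292. CXCL3 had 580 and 349 against 55.0 and 71.2. The log2 difference between lines was −6.75 for CXCL8 (SE 0.19, limma adjusted p = 6.04e-05), −6.71 for CXCL5 (SE 0.13, limma adjusted p = 4.33e-05) and −4.69 for CXCL1 (SE 0.14, limma adjusted p = 6.62e-05). It was −3.37 for CXCL2 (SE 0.27, limma adjusted p = 0.000847) and −2.38 for CXCL3 (SE 0.24, limma adjusted p = 0.00166). The H1299 signals of CXCL8 and CXCL5 lay below the offset of 29.06, so the size of their differences is set in part by it. With no offset the CXCL8 difference was −8.92, and with its probe sets averaged it was −5.35. Without _x_at probe sets, whose probes can match other transcripts, it was −3.95, from the second probe set. CXCL2 was also read on an _x_at probe set. Its other probe sets lay below the filter and differed by −0.55 and −0.05 under scramble.

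These 5 CXCL genes lie in a cluster on chromosome 4 and share a short sequence in front of their start sites. Whether this sequence has a part in their line differences was not tested. The stretches below, from RefSeq on GRCh38.p14, each hold the same match to a core of the NF-kB binding site. Each runs 5′ to 3′ on the strand of its gene, and the capitals mark the match to GGAANTTCC.
CXCL8 (chr4:73740428-73740527, plus strand): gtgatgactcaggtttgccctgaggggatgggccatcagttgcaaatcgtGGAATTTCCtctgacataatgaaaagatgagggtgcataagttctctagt
CXCL1 (chr4:73869265-73869364, plus strand): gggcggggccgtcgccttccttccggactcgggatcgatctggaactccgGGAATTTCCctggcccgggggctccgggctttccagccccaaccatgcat
CXCL2 (chr4:74099223-74099322, minus strand): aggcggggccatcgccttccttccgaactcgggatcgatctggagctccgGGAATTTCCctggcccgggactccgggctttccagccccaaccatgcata
CXCL3 (chr4:74038718-74038817, minus strand): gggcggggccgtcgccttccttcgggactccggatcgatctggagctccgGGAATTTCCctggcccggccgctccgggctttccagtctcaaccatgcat
CXCL5 (chr4:73998718-73998817, minus strand): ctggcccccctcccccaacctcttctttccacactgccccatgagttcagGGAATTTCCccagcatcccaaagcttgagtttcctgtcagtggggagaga
The matched bases were GGAATTTCC in all 5. The match began 91 bases before the annotated start in CXCL8, 78 in CXCL1, 77 in CXCL2, 78 in CXCL3 and 90 in CXCL5. Aligned on the match without gaps, the CXCL1 and CXCL3 stretches were identical at 93 of 100 bases and the CXCL1 and CXCL2 stretches at 76. Shortly after the match CXCL2 lacks a base that CXCL1 has, so later bases are out of register. The ungapped count of 76 therefore understates the likeness of CXCL1 and CXCL2. The CXCL8 stretch shared 34 of 100 bases with CXCL1.

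The motif GGAANTTCC reads the same on both strands, and 0.965% of the 35116 RefSeq promoters in the table, from 250 bases before to 50 after a start, held it. Of the 28 listed genes found in that table, 11 had it in at least 1 promoter. These were the 5 CXCL genes, ICAM1, NFKB1, REL, NFKBIA, NFKBIZ and TNFRSF9. The looser motif GGGNNNTTC, searched on both strands, was in 15.5% of all promoters and in at least 1 promoter of 18 of the 28 genes. It can overlap the first motif, and 9 of the 28 had a promoter with both. Both motifs were written from textbook NF-kB sites in genes such as these, so the counts describe the promoters and test nothing. CX3CL1, CCL2, IL18, LIF, CSF1, CSF3, NFKBIE and RELB are the genes not matched in that table.

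CCL2, the main monocyte attractant, had signals of 495 and 644 in A549 and 98.0 and 53.9 in H1299 (log2 difference −2.53, SE 0.25, limma adjusted p = 0.00151). CCL20, which attracts dendritic and Th17 cells through CCR6, had 241 and 130 against 82.1 and 95.1 (−0.82, SE 0.24, limma adjusted p = 0.0400). The CCL20 difference was the smallest of the 7 and lay at −1.28 under scramble but −0.36 under hMOF siRNA. CX3CL1, the membrane-bound chemokine fractalkine, did not pass the filter and reached at most 70.1.

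Among the interleukins and related cytokines, IL6, IL11, IL18, IL32 and LIF were called higher in A549. IL18, a cytokine matured by inflammasomes, had signals of 1249 and 1210 in A549 and 16.6 and 12.3 in H1299 (log2 difference −4.86, SE 0.11, limma adjusted p = 4.56e-05). IL6, the acute-phase cytokine, had 308 and 264 against 30.2 and 31.5 (−2.39, SE 0.12, limma adjusted p = 0.000232). IL11, which signals through the shared receptor chain gp130 as IL6 does, had 427 and 1347 against 34.3 and 28.6 (−3.71, SE 0.41, limma adjusted p = 0.00215). The A549 arrays lay above the H1299 arrays for all 3 of these genes. IL18 in H1299 lay below the offset, and so did IL11 on the H1299 hMOF siRNA array. With probe sets averaged, the IL11 difference was −2.27.

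LIF, another gp130 cytokine, differed by −1.34 and IL32, an inducer of other cytokines, by −0.80. IL1RN, the interleukin-1 receptor antagonist, did not pass the test (0.06). IL1A, IL1B and TNF, the classic first signals of inflammation, did not pass the filter, and their highest signals were 80.6, 75.1 and 82.3. The macrophage growth factor CSF1 was called higher in A549 (signals of 556 and 413 against 180 and 150, log2 difference −1.39). The neutrophil growth factor CSF3 stayed between 98.1 and 111 on all arrays and was not called.

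The promoter of IL6 carried the looser motif beginning 73 bases before the start. Its stretch is shown with those of NFKBIA, NFKBIZ and ICAM1, which also carry a match. These 4 genes differed between the lines by different amounts, ICAM1 in the opposite direction. A part of the match in these differences was not tested. Capitals mark GGGNNNTTC for IL6 and GGAANTTCC for the others.
IL6 (chr7:22727077-22727176, plus strand): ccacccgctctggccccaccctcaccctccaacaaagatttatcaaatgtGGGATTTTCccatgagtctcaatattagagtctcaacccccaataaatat
NFKBIA (chr14:35404781-35404880, minus strand): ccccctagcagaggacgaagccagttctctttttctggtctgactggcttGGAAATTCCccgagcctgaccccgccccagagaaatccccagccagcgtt
NFKBIZ (chr3:101827740-101827817, plus strand): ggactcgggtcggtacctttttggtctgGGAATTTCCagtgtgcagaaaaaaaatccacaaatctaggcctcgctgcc
ICAM1 (chr19:10270884-10270983, plus strand): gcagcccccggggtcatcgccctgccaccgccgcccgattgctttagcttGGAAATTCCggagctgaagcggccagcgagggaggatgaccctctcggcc
The match began 81 bases before the start in NFKBIA, 222 in NFKBIZ and 186 in ICAM1.

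The NF-kB subunits differed little between lines. Of 5 subunit genes, RELB, the partner of the non-canonical pathway, was called higher in H1299 (signals of 172 and 155 in A549 and 245 and 277 in H1299; log2 difference 0.59, SE 0.13, limma adjusted p = 0.0158). RELA, REL, NFKB1 and NFKB2 did not pass, with differences between −0.30 for REL and 0.31 for NFKB1. On the probe sets used, the signals of RELA and NFKB2 overlapped between the lines, and those of REL and NFKB1 did not. The share of all genes without such overlap was not counted, so this has no background beside it. RELA differed by 0.22 under scramble and −0.02 under hMOF siRNA, but its second probe set by −0.37 and −0.44. The second NFKB2 probe set, also past the filter, differed by 0.48 and 0.31.

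Of 5 genes listed as inhibitors or feedback regulators of NF-kB, NFKBIZ, TNFAIP3 and NFKBIA were called higher in A549 and NFKBIE higher in H1299. NFKBIZ, a nuclear IkB protein that helps induce secondary response genes such as IL6, had signals of 2240 and 1731 in A549 and 195 and 157 in H1299 (log2 difference −3.29, SE 0.11, limma adjusted p = 8.22e-05). NFKBIE, the inhibitor IkB-epsilon, had 190 and 102 in A549 and 958 and 350 in H1299 (1.85, SE 0.18, limma adjusted p = 0.00148). NFKBIE therefore ran against NFKBIZ, TNFAIP3 and NFKBIA and against the chemokines. TNFAIP3, the ubiquitin-editing enzyme A20, differed by −1.40 and NFKBIA, the main inhibitor IkB-alpha, by −0.84. TNIP1, which binds A20, was not called (−0.13).

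The remaining targets also divided by line. PTGS2, the prostaglandin synthase COX-2, had signals of 1870 and 1874 in A549 and 7.18 and 11.7 in H1299 (log2 difference −5.63, SE 0.11, limma adjusted p = 4.33e-05). TNFAIP2, a TNF-induced gene linked to membrane protrusions, had 1138 and 993 against 47.1 and 43.3 (−3.88, SE 0.11, limma adjusted p = 6.19e-05). ICAM1, the adhesion molecule that leukocyte integrins bind, had 61.7 and 55.4 in A549 and 366 and 388 in H1299 (2.21, SE 0.11, limma adjusted p = 0.000252). PTGS2 and TNFAIP2 were thus high on both A549 arrays, and ICAM1 on both H1299 arrays. The H1299 signals of PTGS2 lay below the offset, which sets its difference in part: it was −7.67 with no offset and −4.87 with the offset at the 40th percentile. With probe sets averaged, the TNFAIP2 difference was −2.57. BIRC2, the apoptosis inhibitor cIAP1, was called higher in H1299 (0.54) and TNFRSF9, the co-stimulatory receptor 4-1BB, higher in A549 (−0.47). All 3 ICAM1 probe sets were higher in H1299 under scramble, by 2.12, 1.72 and 0.52. Under scramble the second PTGS2 probe set differed by −4.34, and the 3 of CXCL5 by −6.86, −6.69 and −6.42.

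**Figure D2:**
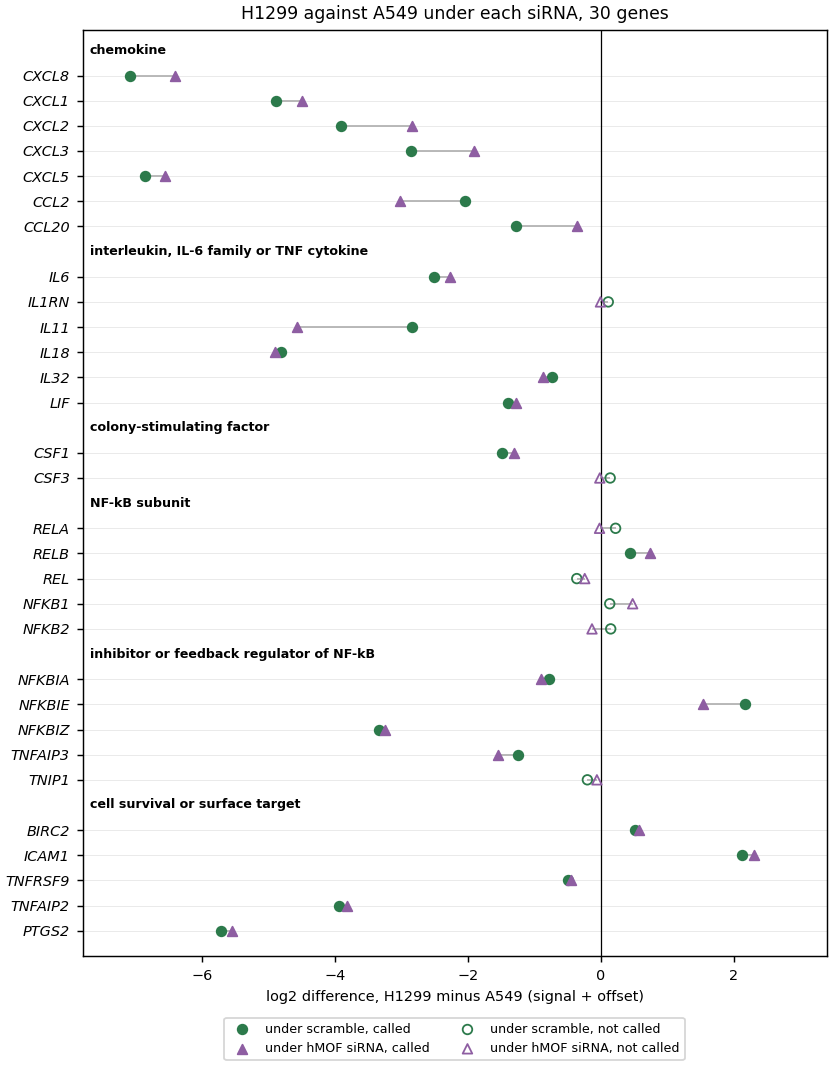
Difference between H1299 and A549 in log2(signal + 29.06) for the 30 genes tested, under scramble (circles) and under hMOF siRNA (triangles), with a grey line joining the 2 values of a gene. Filled symbols mark genes called over all 4 arrays by limma and open symbols genes not called. CXCL8 and CXCL5 lie farthest to the left and ICAM1 and NFKBIE farthest to the right.

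Under hMOF siRNA, none of the 30 genes was called higher and none lower over both lines by limma with cell line as a block, while 5 had an unadjusted p under 0.05. Over all genes tested, 1.16% were called higher, 2.41% lower, and 23.8% had an unadjusted p under 0.05. In A549, IL11 was at least 2-fold higher (0.717% of all genes) and no gene of the list was 2-fold lower (1.14%). In H1299, NFKBIE was at least 2-fold lower (2.21%) and none was 2-fold higher (1.22%). The median log2 ratio was −0.16 in A549 and −0.06 in H1299, beside −0.02 and −0.01 for all genes. In A549, 24 of the 30 ratios were below 0, and in H1299 17, where 53.6% and 51.5% of all genes were. Of the 30 genes, 13 were below 0 in both lines, 1 above 0 in both and 15 had opposite signs. Over all genes, 36.7% were below 0 in both lines, 31.6% above 0 in both and 31.7% had opposite signs.

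**Figure D3:**
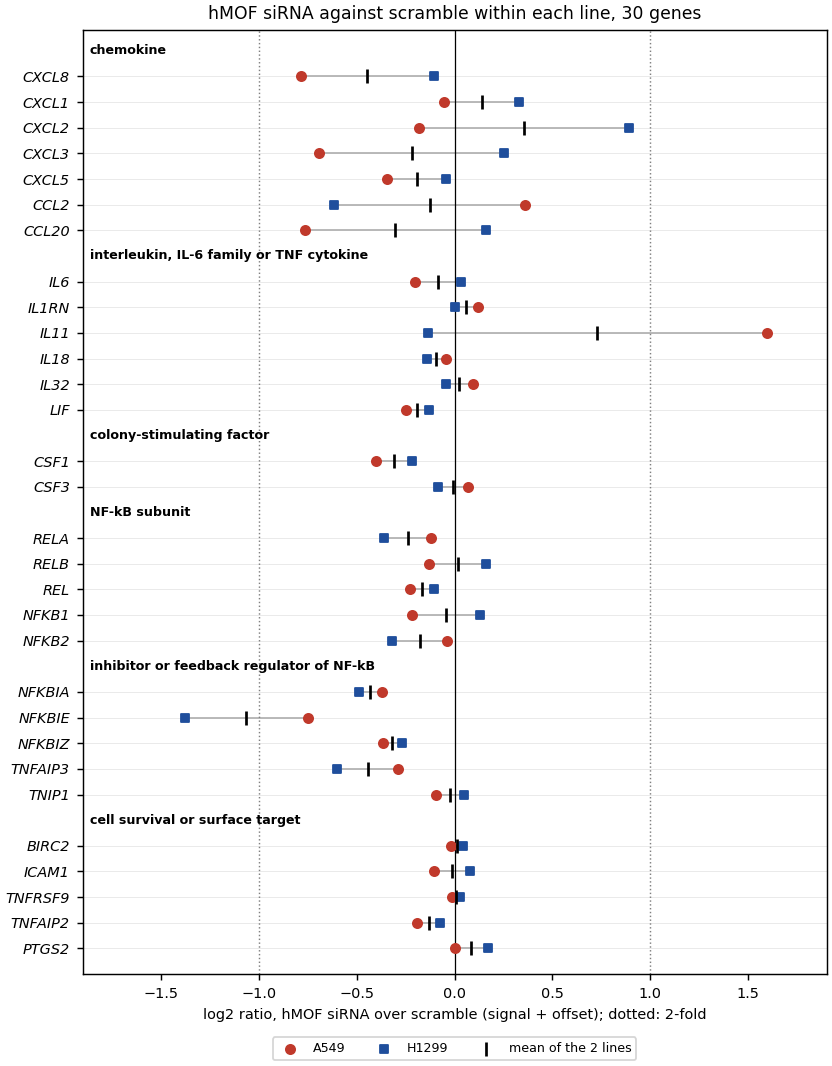
Log2 ratio of hMOF siRNA to scramble, from signal plus 29.06, for the 30 genes tested, in A549 (red circles) and H1299 (blue squares), 1 array pair per point, with a black bar at the mean of the lines. IL11 in A549 and NFKBIE in H1299 lie beyond the dotted 2-fold lines, and NFKBIA, NFKBIE, NFKBIZ and TNFAIP3 have both points left of 0.

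Among the 6 groups of listed genes, the 5 inhibitors or feedback regulators of NF-kB had the lowest median ratio in both lines. Of the 5, NFKBIE, NFKBIA, TNFAIP3 and NFKBIZ were lower with hMOF siRNA in both lines, each with an unadjusted limma p under 0.05. None passed the adjusted threshold. Over all genes tested, 23.8% had an unadjusted p under 0.05 and 36.7% were below 0 in both lines. The median log2 ratio of the 5 was −0.37 in A549 and −0.49 in H1299. In 8 other inhibitors and deubiquitinases of the pathway the medians were −0.16 and −0.01. NFKBIE came closest to the threshold. With hMOF siRNA its signal stood at 53.3% of scramble in A549 (190 and 102) and at 36.6% in H1299 (958 and 350). The log2 ratios were −0.75 and −1.38 (mean −1.06, SE 0.18, limma adjusted p = 0.0549). Among the 9 alternatives that kept the block for cell line, NFKBIE passed in 5, and its adjusted p ran from 0.0393 to 0.0660.

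NFKBIA stood at 3646 and 2810 on the A549 arrays and at 2104 and 1491 on those of H1299, or 77.1% and 70.9% of scramble (mean log2 ratio −0.43, SE 0.11, limma adjusted p = 0.103). TNFAIP3 stood at 1467 and 1195 in A549 and, in H1299, at 604 and 389, or 81.4% and 64.4% (−0.44, SE 0.13, limma adjusted p = 0.129). Its second probe set gave −0.44 and −0.35. NFKBIZ stood at 77.2% and 80.4% of scramble (−0.32, SE 0.11, limma adjusted p = 0.174), and its second probe set gave −0.47 and −0.10. Both array pairs and both probe sets of TNFAIP3 and NFKBIZ thus lay below 0. TNIP1 was at −0.10 and 0.05.

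The chemokines did not move together with hMOF siRNA. In A549, where they were bright, the log2 ratios were −0.78 for CXCL8, −0.76 for CCL20, −0.69 for CXCL3, −0.35 for CXCL5, −0.18 for CXCL2 and −0.05 for CXCL1, and 0.36 for CCL2. In H1299 CXCL2 stood at 0.89, from a signal of 144 to 292, and CCL2 at −0.61, from 98.0 to 53.9. Of the 7 genes, 5 had opposite signs in the lines. CXCL8 signal in A549 was 57.8% of scramble, and its second probe set gave 835 and 416, a log2 ratio of −0.96. None of the 7 had an unadjusted p under 0.05, and the smallest adjusted p was 0.245, for CXCL8. CXCL2 was read on an _x_at probe set, and its other 2 probe sets lay below the filter, at 44.5 or less. The 3 CXCL5 probe sets gave −0.35, −0.39 and −0.36 in A549.

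IL11 had the largest single ratio of the list. In A549 it stood at 427 under scramble and 1347 under hMOF siRNA, a log2 ratio of 1.59, and in H1299 at 34.3 and 28.6, or −0.14. The mean of the lines did not pass (0.73, SE 0.41, limma adjusted p = 0.359), and the second IL11 probe set gave 109 and 160 in A549, or 0.46. With probe sets averaged, the mean of the lines was 0.48. The fibroblast marker list also stood higher on the A549 hMOF siRNA array, with a summed signal of 1364 against 696 with scramble, through COL1A1 (541 to 1191). Of its other members, COL1A2, DCN and LUM were at 52.2, 70.4 and 50.8 on that array, and the part of such a shift in the IL11 ratio was not tested. In H1299 the summed signals of that list were 150 and 165.

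The other cytokines and growth factors had ratios between −0.40 and 0.12. IL6 had log2 ratios of −0.20 and 0.03, IL18 of −0.05 and −0.14, IL32 of 0.09 and −0.05, LIF of −0.25 and −0.13, and IL1RN of 0.12 and 0.00. CSF1 stood at −0.40 and −0.22, with an unadjusted limma p of 0.0446 that did not pass after adjustment (mean −0.31, SE 0.11, limma adjusted p = 0.198), and CSF3 stood at 0.07 and −0.09. None of these 7 genes passed the adjusted threshold.

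The subunit genes did not pass either. RELA, the main activating subunit, had signals of 438 and 401 in A549 and 516 and 396 in H1299 (log2 ratios −0.12 and −0.36). Its second probe set, also past the filter, went the other way, with 194 and 309 in A549 against 144 and 220 in H1299 (log2 ratios 0.60 and 0.52). The probe sets of RELA disagree in sign in both lines, so no direction can be given for that gene. REL stood at −0.23 and −0.11, NFKB2 at −0.04 and −0.32, NFKB1 at −0.22 and 0.13 and RELB at −0.13 and 0.16. Of the remaining targets, PTGS2 was at 0.00 and 0.17, TNFAIP2 at −0.19 and −0.07, ICAM1 at −0.10 and 0.08, BIRC2 at −0.02 and 0.04 and TNFRSF9 at −0.01 and 0.03.

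A list of 69 other pathway genes had 52 past the filter, of which 1 was called higher with hMOF siRNA (1.92%, beside 1.16% of all genes) and 4 lower (7.69%, beside 2.41%). MAP3K7, the kinase TAK1 that activates IKK after TNF and interleukin-1, fell from 426 to 150 in A549 and from 651 to 247 in H1299 (log2 ratios −1.34 and −1.30, SE of the mean 0.11, limma adjusted p = 0.0288). All 4 MAP3K7 probe sets passed the filter, and the other 3 gave −1.19 and −1.06, −1.10 and −1.14, and −0.86 and −0.94. OTULIN, which removes linear ubiquitin chains, fell from 569 to 322 and from 501 to 242 (−0.77 and −0.97, limma adjusted p = 0.0389). Only that OTULIN probe set passed the filter, so averaging probe sets left its ratios unchanged. The others, below the filter, gave 0.10 and 0.23, and −0.01 and −0.05. CYLD, a deubiquitinase that restrains IKK, fell from 399 to 242 and from 368 to 212 (−0.66 and −0.72, limma adjusted p = 0.0483), and 1 of its 5 probe sets past the filter gave 0.06 and 0.10. The rest past the filter gave −0.84 and −1.14, −0.86 and −1.03, and −0.81 and −1.06. LIFR, the receptor of LIF, fell from 212 to 125 and from 410 to 237 (−0.65 and −0.72, limma adjusted p = 0.0492). TRAF3, an adaptor that holds the non-canonical pathway off, rose from 608 to 1013 and from 706 to 1247 (0.71 and 0.80, limma adjusted p = 0.0436). Among the 9 alternatives that kept the block for cell line, MAP3K7 and OTULIN passed in all 9, TRAF3 in 8, CYLD in 6 and LIFR in 4. The highest limma adjusted p was 0.0518 for CYLD and 0.0600 for LIFR. When the probe sets of TRAF3 were averaged its mean was 0.47 and it did not pass.

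By group, 1 of 11 receptors, 2 of 12 adaptors and proximal kinases, none of 8 genes of the IKK complex and linear ubiquitin ligase, 2 of 8 other inhibitors and deubiquitinases and none of 13 other classic targets were called, where 1.16% of all genes were called higher and 2.41% lower. IKBKB, a catalytic subunit of IKK, stood at −0.40 and −0.71 (limma adjusted p = 0.0860) and MAP3K14, the kinase NIK, at −0.64 and −0.46 (limma adjusted p = 0.0738). TRAF1, itself an NF-kB target, was at −0.13 in A549 and −1.29 in H1299, where its signal was 251 and 85, and did not pass. NFKBIB, the inhibitor IkB-beta, was at 0.38 and 1.13 on _x_at probe sets and did not pass, and its other probe set gave −0.12 and −0.02. The median ratio of the 52 genes was −0.05 in A549 and −0.04 in H1299.

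**Figure D4:**
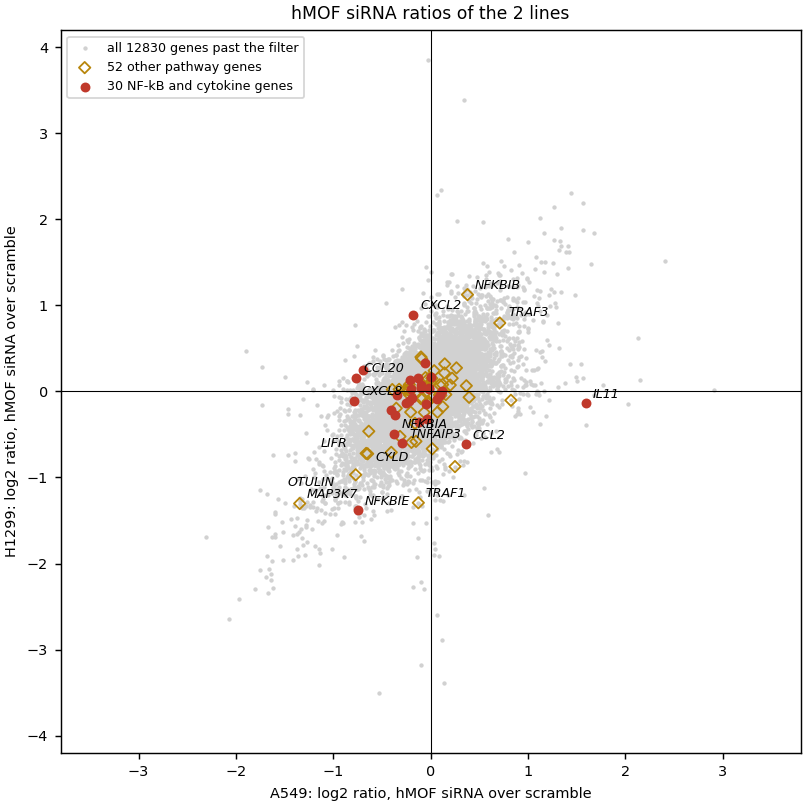
Log2 ratio of hMOF siRNA to scramble in A549 (x axis) and H1299 (y axis), from signal plus 29.06. Grey points are all 12830 genes tested, red points the 30 NF-kB and cytokine genes and open diamonds the 52 other pathway genes. MAP3K7, OTULIN and NFKBIE lie toward the lower left, TRAF3 toward the upper right, and IL11 stands alone at 1.59 on the A549 axis and −0.14 on the H1299 axis.

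Between lines, 24 of these 52 pathway genes were called higher in A549 (46.2%, beside 27.3% of all genes) and 10 higher in H1299 (19.2%, beside 25.1%). The largest differences toward A549 were those of MYD88, the adaptor of interleukin-1 and Toll-like receptors (signals of 2015 and 1572 in A549 and 28.3 and 21.1 in H1299; log2 difference −5.08), the complement gene C3 (−4.76) and LTBR, the lymphotoxin receptor of the non-canonical pathway (−4.33). The interleukin-1 receptor IL1R1 (−2.62) and the interleukin-6 receptor IL6R (−2.43) followed. The H1299 signals of MYD88 lay below the offset, so the size and rank of its difference are set in part by it. LTBR was read on 1 bright probe set, and its other 2 past the filter differed by −0.32 and −0.32 under scramble. Toward H1299 the largest were CD83, a marker of activated antigen-presenting cells (2.43), TRAF1 (1.25), MAP3K14 (1.01), the urokinase gene PLAU (0.95) and TNIP2, a partner of A20 (0.89). The highest limma adjusted p of the 10 genes named here was 0.0411, for PLAU. MYD88, C3, LTBR and IL6R passed the filter through their A549 signals alone, and TRAF1 through its H1299 signals alone.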

How the data were processed

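The values are linear signal intensity per probe set on an Affymetrix array of 54675 probe sets, deposited by the authors and computed with MAS5 per the submitters' processing notes. The sources used here give no MAS5 version, scaling target or detection call, and the number of arrays limits the precision. Groups came from the source names, and arrays of the same line were a pair.

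Probe sets were named through the platform annotation and RefSeq (41091 with 1 gene, 1801 with several, 11721 unnamed and 62 controls). An offset of 29.06, the 20th percentile of all signals, was added before log2, which shrinks ratios of dim genes. A probe set was kept when its mean signal was at least 78.1, the 50th percentile, and the highest-mean probe set stood for a gene. limma 3.58.1 (lmFit, eBayes) in R 4.3.3 was fitted to the 12830 genes with terms for line and siRNA (1 residual and 3.74 prior degrees of freedom), with Benjamini-Hochberg adjustment over all of them, and was tested on simulated data. Ratios within a line have no test. Promoters were searched in Python 3.11.15, and figures were drawn with matplotlib 3.10.9. Genes of the list below the filter are given by signal only.

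The genes, lists and tests were chosen with earlier results of these data known. Every listed gene is named. Signals on all 4 arrays are given for those past the filter that were called with siRNA, 2-fold within a line or 4-fold between lines under scramble, and for some others. Pathway genes are named where called with siRNA or 2-fold within a line, with the 5 largest line differences each way; the few others named were chosen after their values were seen. Alternatives changed the offset, filter, normalization, probe set rule, size rule, eBayes trend and block, and left out each line or siRNA, which leaves the ratio within the other line or the difference under the other siRNA.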

Additional observations from a re-analysis of the deposited data

Results flagged for a closer look

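In 15 of the 30 genes the log2 ratio of hMOF siRNA to scramble lay above 0 in one line and below 0 in the other. Over all genes tested this held for 31.7%. Each line has a single array pair, so these differences were not tested. The H1299 ratio minus the A549 ratio was largest in size for IL11 (−1.73), which stood at 1.59 in A549 and −0.14 in H1299. It was 1.07 for CXCL2, −0.97 for CCL2, 0.94 for CXCL3 and 0.92 for CCL20, all of them chemokines. Smaller differences were 0.38 for CXCL1, 0.35 for NFKB1, 0.29 for RELB, 0.23 for IL6 and 0.18 for ICAM1. The remaining values were −0.16 for CSF3, 0.14 for TNIP1, −0.14 for IL32, 0.060 for BIRC2 and 0.042 for TNFRSF9.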

How the results depend on the processing

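No gene of the list was called higher with hMOF siRNA in any of the 10 alternatives, where at most 2.29% of all genes were. The alternative without the block called no gene of the whole series, so its count says nothing about the list. The count called lower was 0, and 1 (NFKBIE) with offset 0, the filter at the 70th percentile, quantile normalization, averaged probe sets or no _x_at probe sets. A size rule of 1.5-fold in place of 2-fold gave 4 genes lower in A549, 1 higher and 3 lower in H1299. The share of all genes at 1.5-fold was not counted, so these counts have no background beside them. Offset 0 gave 1 gene 2-fold higher in H1299, beside 1.64% of all genes. Of the pathway genes, the count called higher (1) was 0 with averaged probe sets and without the block. The count called lower (4) was 2 without the signal filter, with centring or with eBayes trend, and 0 without the block. Without the block for siRNA, pathway genes higher in H1299 numbered 4 in place of 10, while calls of the 30 genes between lines stayed at 16 to 19 higher in A549 and 3 to 5 higher in H1299. NFKBIB turned to −0.073 when _x_at probe sets were left out. The median ratio of the list ran from −0.18 to −0.11 in A549 and from −0.12 to −0.03 in H1299. Over all genes, 149 were called higher and 309 lower, against 294 and 381 after quantile normalization. Without the block no gene was called with hMOF siRNA, and NFKBIE was no longer called between lines (limma adjusted p = 0.0623). The siRNA test was paired by cell line, and the labels number no replicates that could form another block. Signals below the offset have ratios set in part by it, and dim genes have no detection call here.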
